A study of Mus musculus with 12 samples.

Results

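The 78 mouse genes described here carry the names of mitochondrial ribosomal proteins. They are the protein-coding genes of the GENCODE M21 annotation whose symbols read Mrpl or Mrps followed by a digit, out of 55487 genes in the deposited gene table and 16233 with enough counts to test, and all 78 were tested. The symbols divide them into 51 genes of the large subunit, 26 of the small subunit and Mrps36. Mrps30 and Mrps18a carry small-subunit names but were counted with the large subunit, where structures of mammalian mitochondrial ribosomes place their proteins. Mrps36 was kept apart, because its protein is a component of the oxoglutarate dehydrogenase complex.

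Polyadenylated RNA of whole mouse retina was sequenced in 12 libraries. The 5xFAD animals carry the strain label Tg6799. This line is a transgenic model of Alzheimer disease in which the Thy1 promoter, active in neurons, drives human transgenes with familial disease mutations. The WT animals are of strain C57BL/6J and lack the transgenes. The 4 groups of 3 libraries were 5xFAD and WT retinas of animals aged 1 month, and 5xFAD and WT retinas of animals aged 6 months. The study asked how levels of transcripts, those with retained introns among them, differ between the genotypes. Nothing in the labels ties a library to its own animal, and p-values therefore measure the spread between these samples, which may be technical.

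Mitochondria translate the few proteins encoded in their own DNA, all of them subunits of the respiratory chain and of ATP synthase, on a ribosome of their own. Its RNAs come from mitochondrial DNA, but all of its proteins are made in the cytosol from nuclear genes and imported. A share of these proteins has counterparts in bacteria, and the others are particular to mitochondria. Photoreceptors, which make up most cells of the mouse retina, pack mitochondria densely into their inner segments and use oxygen at a very high rate.

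Values per gene are CPM, counts scaled to a common depth, here with the TMM factor of each library. A value after ± is the SD between the libraries of 1 group (n = 3) where it follows CPM, and an approximate SE where it follows a log2 fold change. A gene was called changed at an adjusted p below 0.05 in edgeR's quasi-likelihood test of all 16233 genes, with Benjamini-Hochberg adjustment.

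The libraries held 10928031 to 19552537 counts, and rod markers were abundant in all of them, with Gnat1, the rod transducin gene, at 10666 to 12852 CPM. Libraries stood apart in composition. The mean annotated transcript length behind a count was 4195 to 4227 nt in 5xFAD against 3579 to 3790 nt in WT at 1 month, and 3632 to 3730 nt in 5xFAD against 3700 to 4019 nt in WT at 6 months. Ribosomal RNA took 1.11% and 0.446% of the counts in replicates 1 and 2 of 5xFAD at 6 months and 0.325% in replicate 2 of WT at 1 month, more than in the other 9 libraries. Of 5 pigment epithelium markers, 4 were tested and all 4 were lower in 5xFAD at 1 month. Their summed level was 294 to 326 CPM in 5xFAD and 465 to 533 CPM in WT, most of it from Rlbp1, which also marks Müller glia, and Best1 was at or near 0 in all libraries. The 4 lens markers summed to 4.60 to 41.4 CPM in 5xFAD and 0 to 0.629 CPM in WT at 1 month, with Lim2 at 0 in all libraries. Endothelial markers summed to 186 to 200 CPM in 5xFAD and 116 to 129 CPM in WT at 1 month, and to 76.7 to 88.7 CPM in 5xFAD and 107 to 144 CPM in WT at 6 months. Cone markers moved with genotype as well: of 4, 2 were lower in 5xFAD at 1 month and 3 were higher at 6 months. They summed to 846 to 1011 CPM in 5xFAD and 1078 to 1306 CPM in WT at 1 month, and to 1202 to 1351 CPM in 5xFAD and 900 to 990 CPM in WT at 6 months, with no overlap at either age. Between 6 months and 1 month in 5xFAD, 3 of the 4 cone markers and 3 of the 4 tested pigment epithelium markers rose, and as many were positive and called in the interaction of genotype and age. Rod markers summed to 50850 to 54461 CPM in 5xFAD and 45244 to 48800 CPM in WT at 1 month. At 6 months they summed to 49520 to 53719 CPM in 5xFAD and 41231 to 44469 CPM in WT. Bipolar sums were 1088 to 1164 CPM in 5xFAD and 885 to 1004 CPM in WT at 1 month. At 6 months they were 867 to 882 CPM in 5xFAD and 895 to 1107 CPM in WT. Ganglion cell sums were higher in 5xFAD at 1 month (121 to 126 against 103 to 106 CPM) and overlapped at 6 months. The part of these markers in the results below was not tested.

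Promoters of these genes are shown first. Nuclear genes for mitochondrial proteins are known to use the factors NRF1, YY1 and the ETS family (to which GABP belongs). The part of these factors in the results below was not tested. RefSeq windows on GRCm38.p6, from 250 bases before to 50 bases after a transcription start, were found for 69 of the 78 members (75 windows). The 4 windows printed here are those of Mrps6, whose fall at 1 month was the largest, and of a called member for each of 3 motifs. All are printed on the strand of the gene, and capitals mark every match to a motif on either strand.
Mrps6 (GRCm38.p6, chr16:92058086-92058385, plus strand): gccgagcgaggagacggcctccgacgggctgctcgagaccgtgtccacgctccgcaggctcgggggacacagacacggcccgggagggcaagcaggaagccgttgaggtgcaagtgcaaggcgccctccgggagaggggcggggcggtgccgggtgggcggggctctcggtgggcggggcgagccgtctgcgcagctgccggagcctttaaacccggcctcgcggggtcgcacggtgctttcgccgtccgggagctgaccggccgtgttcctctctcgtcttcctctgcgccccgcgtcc
Mrps21 (GRCm38.p6, chr3:95871465-95871764, minus strand): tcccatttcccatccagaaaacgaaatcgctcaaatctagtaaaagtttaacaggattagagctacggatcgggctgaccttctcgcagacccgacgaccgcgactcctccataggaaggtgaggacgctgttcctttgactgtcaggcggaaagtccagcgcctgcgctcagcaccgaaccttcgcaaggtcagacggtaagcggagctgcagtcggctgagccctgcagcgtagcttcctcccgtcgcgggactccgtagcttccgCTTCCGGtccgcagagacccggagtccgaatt
Mrps7 (GRCm38.p6, chr11:115603890-115604189, plus strand): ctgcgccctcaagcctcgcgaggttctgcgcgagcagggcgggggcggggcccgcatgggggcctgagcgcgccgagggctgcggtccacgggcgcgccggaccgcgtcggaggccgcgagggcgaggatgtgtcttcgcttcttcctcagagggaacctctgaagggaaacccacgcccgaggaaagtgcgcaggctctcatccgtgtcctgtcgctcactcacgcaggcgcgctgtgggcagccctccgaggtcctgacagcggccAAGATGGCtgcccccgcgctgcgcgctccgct
Mrpl10 (GRCm38.p6, chr11:97041332-97041631, plus strand): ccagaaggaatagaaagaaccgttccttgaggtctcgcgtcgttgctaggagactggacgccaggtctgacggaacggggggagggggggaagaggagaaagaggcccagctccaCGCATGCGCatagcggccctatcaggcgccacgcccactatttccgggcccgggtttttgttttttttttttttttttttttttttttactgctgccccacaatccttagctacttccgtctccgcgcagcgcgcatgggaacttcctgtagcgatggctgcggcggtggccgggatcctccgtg
The Mrps6 window holds no match. The capitals in the Mrps21 window are an ETS match read on the opposite strand, those in the Mrps7 window a YY1 match, both just after the start, and those in the Mrpl10 window an NRF1 match upstream of it.

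Searched on both strands, the ETS motif CCGGAAG was in 26 of the 75 member windows (34.7%), against 8.86% of all 32851 windows in the table. The YY1 motif AAGATGGC was in 12 member windows (16%), against 2.75% of all. The NRF1 motif GCGCATGCG was in 7 (9.33%), against 1.75%, and the palindrome TCTCGCGAG in 1 (1.33%), against 0.676%. Matches overlapped each other in 4 member windows. Among the 19 members with a window that were lower in 5xFAD at 1 month, 9 had an ETS match, 2 a YY1 match and 3 an NRF1 match. Among the 50 others these numbers were 17, 10 and 4. The windows describe the letters only and do not show binding.

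Mean levels of the members ran from 7.85 to 75.5 CPM over the 12 libraries, with a median of 23.7 CPM. Per kilobase of transcript the median was 17.4 CPM per kb. Mrps21, whose protein is the counterpart of bacterial S21, stood highest at 57.8 CPM per kb, followed by Mrps33 at 46.0 and Mrpl49 at 45.1 CPM per kb. The proteins of Mrps33 and Mrpl49 belong to the group with no bacterial counterpart. Lowest were Mrpl1 at 3.85 CPM per kb, Mrpl19 at 3.88 and Mrpl35 at 3.92 CPM per kb, all in the large subunit. In bacteria, the protein corresponding to Mrpl1 forms the mobile stalk beside the site where used tRNAs leave. Neither Mrpl1 nor Mrpl19 was called in any comparison. Mrpl1 averaged 11.1 ± 2.82 CPM in 5xFAD and 14.0 ± 1.13 CPM in WT at 1 month, against 11.9 ± 2.31 CPM in 5xFAD and 14.7 ± 0.869 CPM in WT at 6 months. Mrpl19 averaged 20.6 ± 5.34 CPM in 5xFAD and 18.1 ± 2.03 CPM in WT at 1 month, and 17.1 ± 1.11 CPM in 5xFAD and 19.0 ± 0.899 CPM in WT at 6 months.

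Many mitochondrial ribosomal protein genes were expressed at a lower level in 5xFAD than in WT retinas at 1 month. Of the 78 genes, 22 fell, 0 rose and 56 did not pass the test, where 8.91% of all tested genes fell and 10.7% rose, 19.6% in all. Log2 fold changes were below 0 for 71 of the 78, with a median of -0.36 against -0.04 over all tested genes. All 3 5xFAD libraries lay below all 3 WT libraries for 37 members, and above them for 1 (Mrps25), where 18.9% and 18.7% of all tested genes did so. The 22 fold changes ran from -0.44 (Mrpl10) to -1.24 (Mrps6). In the plot of fold changes by subunit the 1-month points lie left of 0 almost throughout, while at 6 months 59 points lie right of 0 and 19 left of it, Mrpl23 farthest left.

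**Figure D1:**
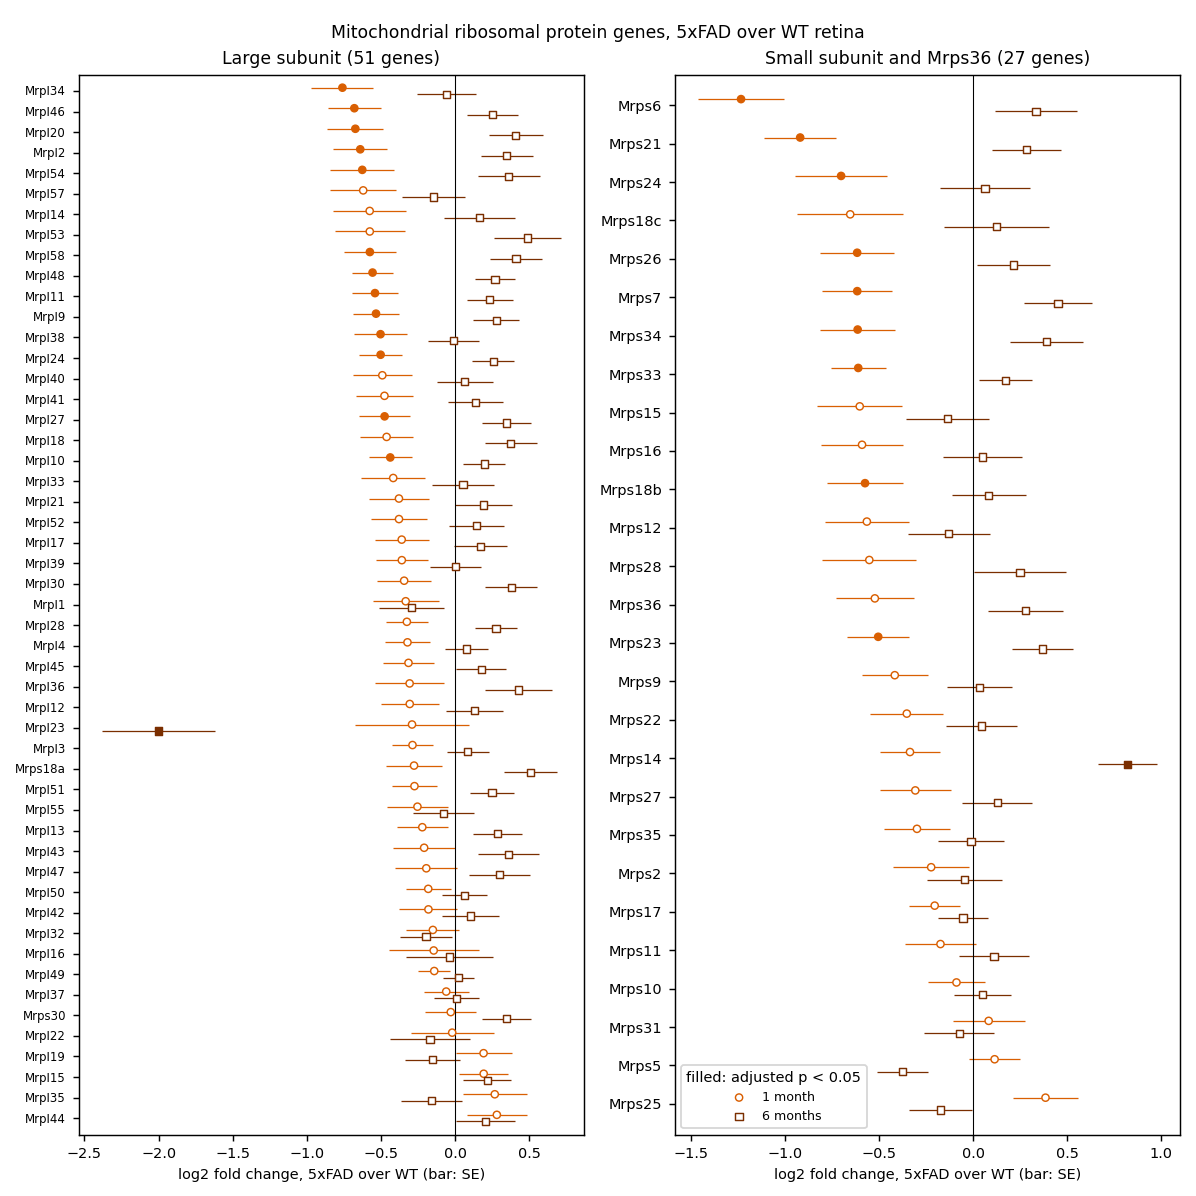
Log2 fold change of 5xFAD over WT for the 51 large-subunit genes (left) and for the 26 small-subunit genes with Mrps36 (right), at 1 month (circles) and 6 months (squares), with bars of 1 SE. Filled symbols passed an adjusted p of 0.05, and 22 do so at 1 month, all below 0, against 2 at 6 months.

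Genes of both subunits fell at 1 month. In the small subunit 9 of 26 genes fell (median log2 fold change -0.53), and in the large subunit 13 of 51 (median -0.33). Of proteins with a bacterial counterpart, 4 of 16 small-subunit and 8 of 30 large-subunit genes fell. Of those particular to mitochondria, 5 of 10 and 5 of 21 fell. No difference between these classes was tested.

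In the small subunit, Mrps6 (chromosome 16, 92058270 to 92112227, plus strand) changed most. Its protein pairs with an S18 protein on the platform of the small subunit. Mrps6 read 8.33, 6.44 and 7.90 CPM in 5xFAD and 16.8, 17.97 and 18.7 CPM in WT at 1 month. Every 5xFAD library was below every WT library, by a wide gap. The log2 fold change was -1.24 ± 0.23 (adjusted p 0.000512). Slc5a3, an inositol transporter gene that overlaps Mrps6 on the same strand, had a log2 fold change of 0.48 ± 0.18 (adjusted p 0.0574) and did not pass the test.

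Mrps21 (chromosome 3, 95862634 to 95871519, minus strand), with the ETS match shown above, read 15.97, 15.3 and 19.3 CPM in 5xFAD and 27.7, 34.6 and 33.4 CPM in WT. The groups did not overlap, and the log2 fold change was -0.92 ± 0.19 (adjusted p 0.00148). Mrps24, the counterpart of bacterial S3 at the entry of the messenger channel, read 8.33, 8.37 and 8.70 CPM in 5xFAD and 10.5, 16.1 and 14.8 CPM in WT. The 5xFAD libraries lay close together, below all WT libraries. Its fall of 0.70 ± 0.24 on the log2 scale (adjusted p 0.0451) was close to the threshold. In every library 70.8% to 98.4% of the Mrps24 counts sat on Mrps24-201, a transcript that the annotation classes as retained intron. Mrps7, the counterpart of bacterial S7, which organises the head of the small subunit, read 25.95, 20.2 and 16.7 CPM in 5xFAD and 28.4, 40.1 and 28.1 CPM in WT (log2 fold change -0.62 ± 0.18, adjusted p 0.0204). Mrps33, whose protein is particular to mitochondria, fell as well. It read 32.5, 30.1 and 30.0 CPM in 5xFAD and 50.6, 50.6 and 40.2 CPM in WT (log2 fold change -0.61 ± 0.15, adjusted p 0.00426). For all 3 of these genes the highest 5xFAD library was under the lowest WT library. The other small-subunit genes that fell were Mrps26, Mrps34, Mrps18b and Mrps23.

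In the large subunit, Mrpl34 led, with 11.02, 8.19 and 11.4 CPM in 5xFAD and 12.9, 19.1 and 19.9 CPM in WT at 1 month (log2 fold change -0.76 ± 0.21, adjusted p 0.0118). The lowest WT library came close to the highest 5xFAD library without reaching it. Mrpl46 and Mrpl48, whose proteins sit in the central protuberance that faces the small subunit, both fell. Mrpl46 read 12.2, 12.1 and 12.02 CPM in 5xFAD and 18.2, 17.8 and 22.4 CPM in WT (log2 fold change -0.68 ± 0.18, adjusted p 0.00826). Mrpl48 read 42.7, 37.1 and 39.4 CPM in 5xFAD and 49.4, 57.9 and 68.2 CPM in WT (log2 fold change -0.56 ± 0.14, adjusted p 0.00649). The groups were apart for both. Rab6a overlaps Mrpl48 on the other strand, as Mrps11 does Mrpl46, and neither passed the test (log2 fold changes 0.23 and -0.17).

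Mrpl20, whose bacterial counterpart acts early in building the large subunit, read 23.7, 16.2 and 21.6 CPM in 5xFAD and 30.5, 38.6 and 29.1 CPM in WT (log2 fold change -0.67 ± 0.19, adjusted p 0.0136). Mrpl24, next to the exit of the peptide tunnel, read 36.2, 29.0 and 35.1 CPM in 5xFAD and 49.8, 52.7 and 39.6 CPM in WT (log2 fold change -0.50 ± 0.15, adjusted p 0.0170). Neither gene had an overlap between the groups. The remaining large-subunit genes that fell were Mrpl2, Mrpl54, Mrpl58, Mrpl11, Mrpl9, Mrpl38, Mrpl27 and Mrpl10. Mrpl58 is a peptidyl-tRNA hydrolase that became part of the ribosome, and Mrpl10 and Mrpl11 belong to the stalk that receives translation factors. The library preparation does not keep strand, and 24 of the 78 members overlap another gene with at least 1 CPM, so their counts can hold reads of that neighbour.

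**Figure D2:**
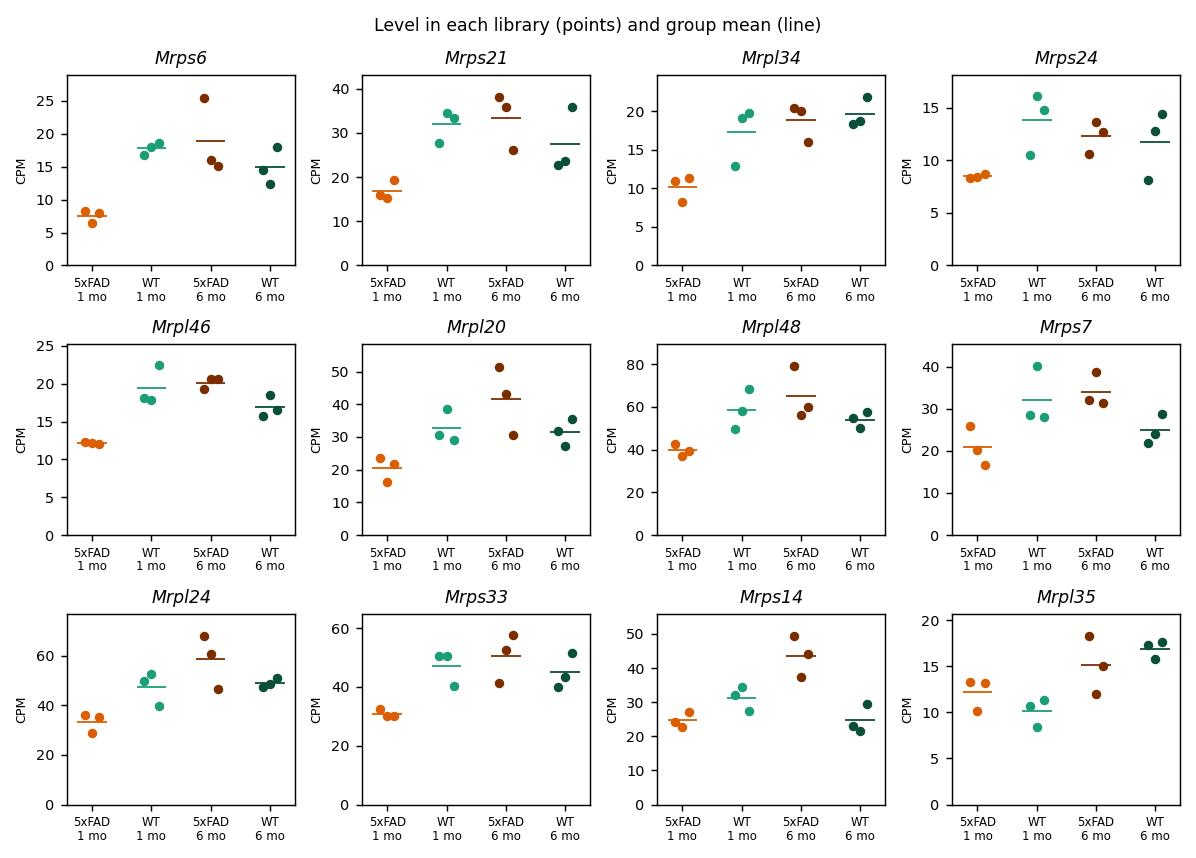
CPM of 12 members in each library (points) with the group mean (line), each panel from 0, with the groups in the order 5xFAD and WT at 1 month, then 5xFAD and WT at 6 months. Mrps6 sits at 6.44 to 8.33 CPM in 5xFAD at 1 month and at 12.3 CPM or more in the other 9 libraries, and Mrps14 is highest in 5xFAD at 6 months.

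The number of 1-month calls changed with the libraries in the fit, and a fit with fewer libraries has less power for every gene. No share over all tested genes stands beside the counts that follow, so they describe the members' calls alone. Leaving out WT replicate 2 left 5 calls, leaving out 5xFAD replicate 2 left 8, and leaving out 5xFAD replicate 3 left 10. Leaving out all 3 libraries with the most ribosomal RNA left 12, a fit that leaves 5xFAD at 6 months with 1 library and assumes for it the spread of the others. Mrps6, Mrps21, Mrpl46, Mrpl48 and Mrps33 were among the calls in all 4 of these fits, and all calls were in the lower direction. Leaving out WT replicate 3 gave 20 calls. Mrps6, Mrps21 and Mrps33 were among these 20, but Mrpl46 and Mrpl48 were not.

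Members have short transcripts, and short transcripts as a class were lower in 5xFAD at 1 month. The median length was 1305 nt for members (460 to 4990 nt) and 2746 nt for all tested genes. With genes in 3 equal groups by length, 60 members fell in the shortest (up to 2061 nt), 15 in the middle and 3 in the longest. In the shortest group, 18.3% of all tested genes were lower at 1 month, with a median log2 fold change of -0.32, and 21 of the 60 members were lower, with a median of -0.48. In the middle group 6.04% of all genes and 1 of the 15 members, Mrpl48, were lower. None of the 3 longest members (Mrpl17, Mrpl19 and Mrps25) was called at 1 month.

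After the trend of each library on transcript length and GC content was removed, 3 members were lower at 1 month (Mrps6, Mrps21 and Mrpl48) and 0 higher, where 6.87% of all tested genes were lower and 4.63% higher. The median over members was then -0.16 and that over all genes -0.05, and 56 of 78 members were below 0. Part of the length trend stayed after removal. Over all tested genes in 20 bins of length, the median was -0.15 in the shortest bin (594 nt) and 0.04 in the longest (8928 nt). In the bins at 1183 and 1408 nt, on either side of the members' median length, it was -0.10 and -0.04. Mrps6 kept a log2 fold change of -0.86 ± 0.22 (adjusted p 0.00965), Mrpl48 one of -0.58 ± 0.15 (adjusted p 0.0106) and Mrps21 one of -0.55 ± 0.17 (adjusted p 0.0419). The plot against transcript length shows both fits.

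**Figure D3:**
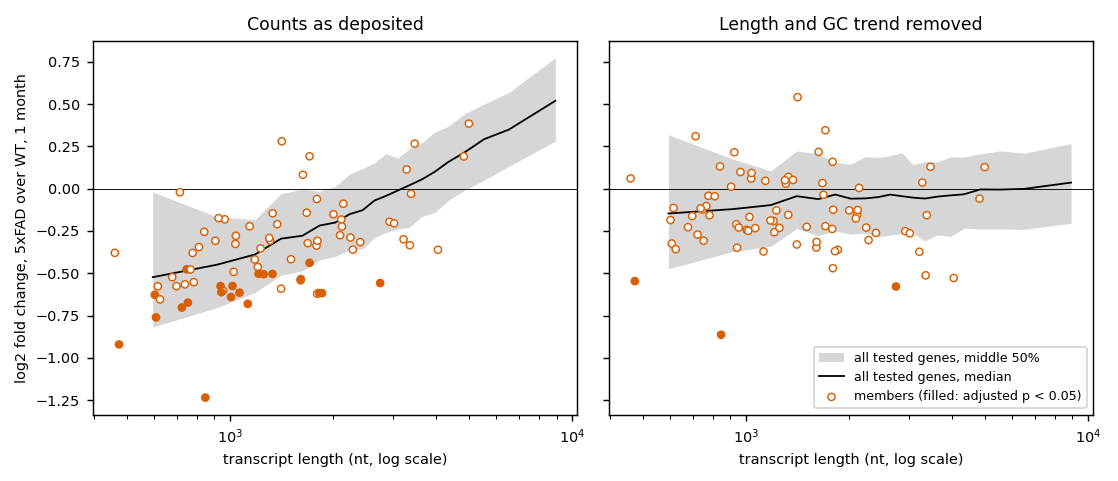
Log2 fold change of 5xFAD over WT at 1 month against transcript length (log scale) for the 78 members (points, filled at an adjusted p below 0.05), with the median (line) and middle 50% (band) of all tested genes in 20 bins of length. With counts as deposited (left) the band falls below 0 at short lengths and 22 members are filled, and after removal of that trend and of the GC trend (right) 3 are filled.

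At 6 months the genotypes differed in 2 members. Mrps14, the counterpart of bacterial S14 in the head of the small subunit, rose, and Mrpl23 fell, while 76 did not pass the test. Of all tested genes, 2.48% rose and 3.89% fell, 6.38% in all. Log2 fold changes were above 0 for 59 of the 78, with a median of 0.14 against 0.00 over all tested genes. All 5xFAD libraries lay above all WT libraries for 14 members and below them for 2, where 11.4% and 12.8% of all tested genes did so. At an unadjusted p below 0.05 there were 13 members, 11 of them higher. Next by p were Mrps18a (log2 fold change 0.51 ± 0.18, adjusted p 0.0964) and Mrps5 (-0.37 ± 0.13, adjusted p 0.0995), which did not pass.

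Mrps14 (chromosome 1, 160195215 to 160202170, plus strand) read 49.5, 37.3 and 44.0 CPM in 5xFAD and 22.9, 21.6 and 29.5 CPM in WT at 6 months. All 5xFAD libraries were above all WT libraries, and the log2 fold change was 0.82 ± 0.16 (adjusted p 0.00291). At 1 month Mrps14 read 24.3, 22.7 and 27.2 CPM in 5xFAD and 32.0, 34.3 and 27.4 CPM in WT, with a log2 fold change of -0.34 ± 0.16 that did not pass (adjusted p 0.150). The 6-month call held with the length and GC trend removed (0.87 ± 0.15, adjusted p 0.000700). Between 45.2% and 60.5% of its counts in a library sat on Mrps14-201, which the annotation classes as a target of nonsense-mediated decay.

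Mrpl23, whose protein lies at the exit of the peptide tunnel, read 2.05, 5.34 and 4.90 CPM in 5xFAD and 17.2, 15.5 and 16.8 CPM in WT at 6 months (log2 fold change -2.00 ± 0.38, adjusted p 0.00290). Its counts are uncertain, because a processed copy on chromosome 2, Mrpl23-ps1, matches its transcript at 100% identity over 540 bases. Mrpl23 held 9.96% to 19.6% of the summed counts of the pair in 5xFAD and 70.5% to 90.4% in WT at 6 months. At 1 month the share was 17.6% to 40.9% in 5xFAD and 16.9% to 33.7% in WT. The 3 WT libraries at 6 months therefore stand apart from the other 9 in how counts were divided. The pair together read 20.6, 29.0 and 24.99 CPM in 5xFAD and 19.0, 22.0 and 23.2 CPM in WT at 6 months, and the groups overlapped. Its log2 fold change was 0.22 ± 0.20 (adjusted p 0.60), so the fall of Mrpl23 was not present in the sum. The pair rose with age in 5xFAD (0.63 ± 0.20, adjusted p 0.0268), where all 6-month libraries were above the 13.1 to 20.3 CPM of the 1-month libraries. Of 54 pseudogene copies found for 31 members, this was the single one with a mean of at least 1 CPM.

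**Figure D4:**
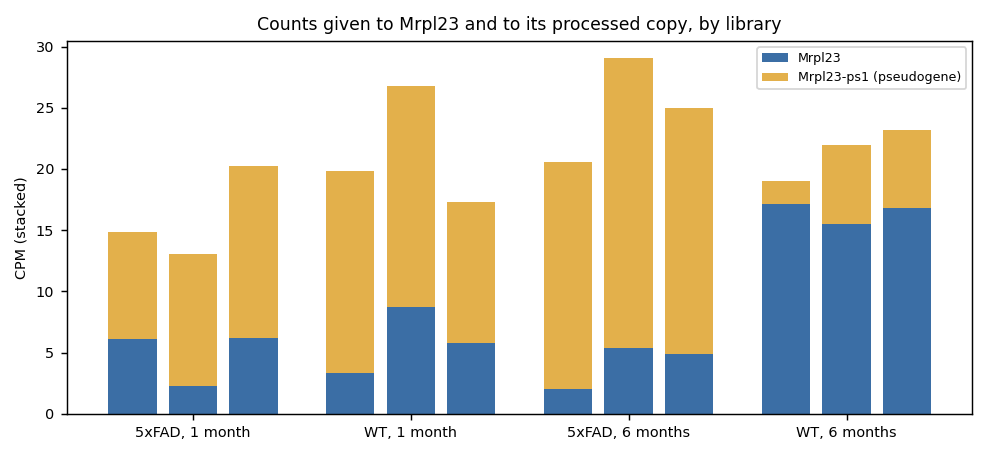
CPM given to Mrpl23 and, stacked on it, to its processed copy Mrpl23-ps1 in each of the 12 libraries. The full bars reach 13.1 to 29.0 CPM and overlap between 5xFAD and WT at each age, while Mrpl23 takes 70.5% or more of the bar in WT at 6 months and 40.9% or less elsewhere.

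Between the ages, many members rose in 5xFAD retinas. At 6 months 33 of the 78 genes were higher than at 1 month in 5xFAD, 0 were lower and 45 did not pass, where 10.8% of all tested genes were higher and 12.4% lower, 23.2% in all. Log2 fold changes were above 0 for 72 members, with a median of 0.50 against 0.03 over all tested genes. In the large subunit 24 of 51 rose and in the small subunit 8 of 26, and Mrps36 rose as well (0.69 ± 0.21, adjusted p 0.0182). In the large subunit 14 of the 21 genes particular to mitochondria and 10 of the 30 with a bacterial counterpart were higher. The 1-month 5xFAD libraries enter this comparison and the 1-month comparison of genotypes, so low values there move both.

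Mrps6 read 25.4, 16.1 and 15.1 CPM at 6 months and 8.33, 6.44 and 7.90 CPM at 1 month in 5xFAD (log2 fold change 1.31 ± 0.23, adjusted p 0.000235). Mrpl20 read 51.3, 43.2 and 30.7 CPM at 6 months against 23.7, 16.2 and 21.6 CPM at 1 month (1.02 ± 0.19, adjusted p 0.000407). Mrps21 read 38.1, 35.8 and 26.2 CPM at 6 months against 15.97, 15.3 and 19.3 CPM at 1 month (0.98 ± 0.19, adjusted p 0.000695). The ages did not overlap for any of the 3. In 2 of them, Mrpl20 and Mrps21, replicate 3 at 6 months was well under replicates 1 and 2, the libraries rich in ribosomal RNA. Mrpl24 read 68.0, 60.7 and 46.7 CPM at 6 months and 36.2, 29.0 and 35.1 CPM at 1 month (0.80 ± 0.15, adjusted p 0.000344), with the same order among the 6-month libraries. Mrpl49 read 86.6, 87.2 and 86.0 CPM at 6 months and 58.8, 61.9 and 64.7 CPM at 1 month (0.49 ± 0.11, adjusted p 0.00207), with little spread at 6 months. Without the 3 libraries rich in ribosomal RNA, 5xFAD at 6 months keeps 1 library, and the fit assumes for it the spread of the others. Fewer of the 33 members were called in that fit. Mrpl20, Mrps21 and Mrpl24 lost their calls, and Mrps6 and Mrpl49 kept theirs. With the length and GC trend removed 16 rose, 15 of them among the 33, where 10.7% of all tested genes rose.

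In WT retinas the family showed little change with age. At 6 months 2 of the 78 genes were higher than at 1 month, Mrpl23 and Mrpl35, and 0 were lower, where 6.01% of all tested genes were higher and 4.49% lower, 10.5% in all. The median log2 fold change was -0.06 against -0.01 over all tested genes. Mrpl35, in the core of the large subunit, read 17.3, 15.7 and 17.6 CPM at 6 months and 10.7, 8.45 and 11.3 CPM at 1 month in WT (log2 fold change 0.73 ± 0.21, adjusted p 0.0277). The ages did not overlap. Next by p was Mrpl49 (0.32 ± 0.11, adjusted p 0.0536), which did not pass. In 5xFAD Mrpl35 read 18.3, 11.97 and 15.1 CPM at 6 months and 13.3, 10.1 and 13.2 CPM at 1 month, which overlapped and did not pass (adjusted p 0.324). The Mrpl23 call (1.47 ± 0.37, adjusted p 0.0132) rested on the division of counts with its copy, since the pair together had a log2 fold change of 0.01 ± 0.20 (adjusted p 0.990).

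The genotype difference itself differed between the ages for 26 of the 78 genes. In the interaction term, which is the 5xFAD over WT log2 fold change at 6 months minus that at 1 month, 25 members were positive and called and 1 (Mrpl23) was negative and called, where 11.7% and 13.3% of all tested genes were, 25% in all. The median over members was 0.52 and that over all tested genes 0.06. Mrps6 had the largest positive value (1.57 ± 0.31, adjusted p 0.000754), followed by Mrps21 (1.20 ± 0.27, adjusted p 0.00184) and Mrps14 (1.16 ± 0.23, adjusted p 0.000575). Among members by smallest p, Mrpl48, Mrps7 and Mrpl20 came next, at 0.83 ± 0.20, 1.07 ± 0.26 and 1.08 ± 0.26. Without WT replicate 1 or 2 at 6 months the count was 16 or 15. Once the trend on length and GC was taken out it was 9, 8 of them among the 26. Of these 9 members, 8 were positive and 1 negative, and Mrps21 and Mrpl20 were not among them. Of all tested genes, 13.4% were positive and called in that fit and 6.47% negative and called.

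Summed over the 78 genes, the level was 1615, 1503 and 1540 CPM in 5xFAD and 1923, 2146 and 1873 CPM in WT at 1 month. At 6 months it was 2233, 2162 and 2042 CPM in 5xFAD against 1828, 1834 and 2148 CPM in WT. The 3 libraries of 5xFAD at 1 month were the lowest of all 12, and the groups overlapped at 6 months. The same 3 libraries had the longest mean transcript length. Within WT at 6 months, replicate 3 had the highest sum (2148 CPM) and the shortest mean length (3700 nt), against 4013 and 4019 nt in the other 2 replicates. In bulk RNA of a whole tissue, fewer cells rich in these transcripts and less of them per cell cannot be told apart.

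**Figure D5:**
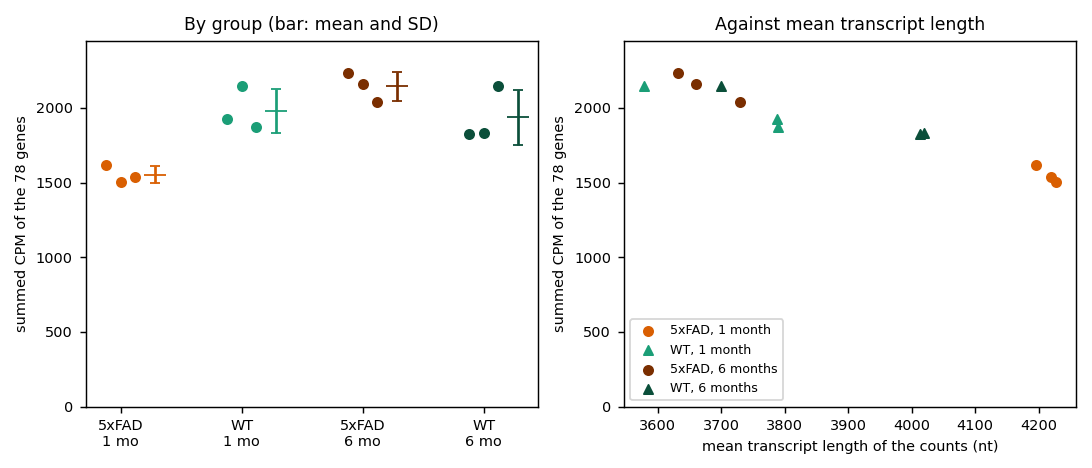
Summed CPM of the 78 genes in each of the 12 libraries, by group with the mean and SD (left) and against the mean annotated transcript length behind a count in nt (right). The 5xFAD libraries at 1 month lie at 1503 to 1615 CPM and at 4195 nt or more, and the other 9 libraries at 1828 to 2233 CPM and at 4019 nt or less.

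Other nuclear genes of ribosomes and of mitochondria were compared on the same fit. The counts are to be read against all tested genes, of which 8.91% were lower and 10.7% higher at 1 month. At 6 months 3.89% were lower and 2.48% higher. At 1 month 77 of 83 tested cytosolic ribosomal protein genes fell in 5xFAD (median log2 fold change -0.60), with 0 higher. So did 62 of 81 respiratory chain genes (median -0.53), also with 0 higher, beside 22 of 78 members. At 6 months 39 cytosolic ribosomal protein genes and 14 respiratory chain genes were higher in 5xFAD and 1 of each was lower. Of the 13 protein genes of mitochondrial DNA, which the mitochondrial ribosome translates, 7 were lower and 0 higher in 5xFAD at 1 month (median -0.62). At 6 months 3 of the 13 were lower and 1 higher (median -0.01). Their summed level was then 47584 to 48925 CPM in 5xFAD and 54916 to 65037 CPM in WT. The counts of several of these 13 genes can be divided with copies elsewhere in the genome and are uncertain. Levels also differed between the lists, and with them the power to call a gene. Over the 12 libraries, cytosolic ribosomal protein genes summed to 8658 to 16152 CPM and respiratory chain genes to 6059 to 8907 CPM. Members summed to 1503 to 2233 CPM. No counts with the length and GC trend removed are given for the other lists. No difference between these classes was tested.

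Of 5 genes for ribosomal proteins outside the Mrpl and Mrps symbols, 1 fell at 1 month, where 8.91% of all tested genes fell, and a different one rose at 6 months, where 2.48% of all tested genes rose. Chchd1 averaged 10.6 ± 2.04 CPM in 5xFAD and 18.1 ± 1.06 CPM in WT at 1 month (log2 fold change -0.77 ± 0.19, adjusted p 0.00555). Dap3, a GTP-binding protein of the small subunit, averaged 53.2 ± 4.43 CPM in 5xFAD and 39.0 ± 2.72 CPM in WT at 6 months (0.45 ± 0.13, adjusted p 0.0335). Gadd45gip1, Ptcd3 and Aurkaip1 passed in neither genotype comparison.

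Genes that build or serve the mitochondrial ribosome were counted in the same way at 1 month, and the counts are to be read against the 8.91% of all tested genes that fell. Of 25 assembly factors 1 fell, Rcc1l (log2 fold change -0.64 ± 0.21, adjusted p 0.0370). Next by p were Nsun4, an rRNA methyltransferase, and Mettl17, which did not pass (adjusted p 0.0559 and 0.0760). Of 12 translation factors 1 fell, Guf1, a relative of a bacterial elongation factor (-0.33 ± 0.11, adjusted p 0.0302), and of 20 genes for charging tRNA 1 fell, Hars2, which charges histidine tRNA (-0.43 ± 0.14, adjusted p 0.0312). Of 12 genes of mitochondrial transcription and RNA metabolism 2 fell. These were Slirp, which protects mitochondrial messengers (-0.67 ± 0.18, adjusted p 0.00895), and Pnpt1, which degrades mitochondrial RNA (-0.44 ± 0.13, adjusted p 0.0212). Among these 4 lists 0 genes rose, and of 9 regulators of mitochondrial biogenesis 0 passed in either direction.

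At 6 months 2 of the 12 translation factors rose in 5xFAD, where 2.48% of all tested genes rose and 3.89% fell. The elongation factor gene Tufm averaged 53.1 ± 7.47 CPM in 5xFAD and 38.3 ± 2.79 CPM in WT (log2 fold change 0.47 ± 0.13, adjusted p 0.0331), and Gfm2, which recycles ribosomes after termination, 60.1 ± 6.18 CPM in 5xFAD and 46.1 ± 0.888 CPM in WT (0.38 ± 0.11, adjusted p 0.0382). Elac2, which trims the ends of mitochondrial tRNAs, rose as well (0.58 ± 0.16, adjusted p 0.0260). It was 1 of the 12 genes of mitochondrial transcription and RNA metabolism. Gatc, a subunit of the enzyme that completes the charging of glutamine tRNA, fell (-0.45 ± 0.13, adjusted p 0.0403). It was 1 of the 20 genes for charging tRNA. The coactivator gene Ppargc1b, 1 of the 9 regulators, fell too (-0.47 ± 0.14, adjusted p 0.0449). Of the 25 assembly factors 0 passed at 6 months in either direction. Between the ages in 5xFAD, 6 of them were higher at 6 months, where 10.8% of all tested genes were.

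At the level of transcripts few differences passed. The 78 genes have 343 annotated transcripts in the deposited table, of which 223 were among the 45326 tested. At 1 month 2 of the 223 were lower in 5xFAD and 0 higher, where 0.922% of all tested transcripts were lower and 1.6% higher. At 6 months 0 passed edgeR's quasi-likelihood test, with 8 at an unadjusted p below 0.05 and 5 calls from the DESeq2 Wald test, which called 15 at 1 month. With age in 5xFAD 2 member transcripts rose, Mrpl24-204 and Mrps6-201, and 0 fell, where 1.16% of all tested transcripts rose and 1.96% fell. In the interaction 3 were positive and called, Mrpl24-204, Mrps6-201 and Mrps21-201, and 0 were negative and called, where 2.08% and 3.97% of all tested transcripts were. The 1-month calls were Mrps6-201, which carries 99.2% or more of the Mrps6 counts in every library, and the coding transcript Mrpl24-204.

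Mrpl24-204 (1115 nt) had 0 estimated counts in all 3 5xFAD libraries at 1 month and 48.5, 29.1 and 42.9 counts in WT at 1 month. It had 36.8, 104.9 and 71.6 counts in 5xFAD and 63.3, 89.8 and 51.9 counts in WT at 6 months. Against a floor of 3 counts over the group it was at least 38.2-fold lower in 5xFAD than in WT at 1 month (adjusted p 0.00719). The other 3 main coding transcripts of Mrpl24 shared its counts unevenly between replicates. Mrpl24-202, for one, took 57.1%, 12.1% and 28.4% of the gene in 5xFAD and 32.4%, 35.4% and 32.2% in WT at 1 month. The division among transcripts of this gene was therefore less certain than its total.

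The share of the members' counts on transcripts of the retained-intron class was 11.2%, 11.2% and 11.5% in 5xFAD and 9.27%, 10.6% and 9.69% in WT at 1 month. It was 8.29%, 10.2% and 8.69% in 5xFAD and 10.3%, 10.5% and 9.43% in WT at 6 months. At 1 month all 5xFAD libraries were above all WT libraries, and at 6 months all but one of them were below, with no test made on a share over chosen genes. Over all genes the share was 6.42% ± 0.083 in 5xFAD and 6.38% ± 0.205 in WT at 1 month (SD, n = 3). Of the 55 tested retained-intron transcripts of members 0 passed at 1 month, with a median log2 fold change of 0.10 and 29 above 0. The 127 tested coding transcripts had a median of -0.35, with 98 below 0.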

How the data were processed

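Whole-retina RNA was poly-A selected and sequenced from an unstranded kit, per the labels' protocols. Reads were trimmed with Trim Galore 0.6.6, aligned with STAR 2.7.1a to GRCm38.p6 and quantified with RSEM 1.3.3, per the submitters' processing notes, which also list DESeq2 1.32.0. The authors deposited expected counts per gene and per transcript, not normalized, which were rounded to whole numbers here. RSEM divides reads that match several places, so genes with near-identical copies are uncertain.

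Gene IDs were matched to GENCODE M21 (55227 of 55487 genes and 141469 of 142699 transcripts). All 12 libraries, of 10928031 to 19552537 counts, were fitted with edgeR 4.0.16 in R 4.3.3: TMM scaling, filterByExpr by group, a quasi-likelihood fit with 1 mean per group and 8 residual degrees of freedom, and Benjamini-Hochberg adjustment over all tested genes or transcripts (adjusted p below 0.05). The script was tested on simulated data. The SE of a log2 fold change is its size divided by the square root of F. Copies of members were searched with BLAST 2.17.0 (at least 250 aligned bases and 85% identity).

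Alternatives were DESeq2 1.42.0 size factors and Wald test, library size alone, other filters, a fit of the 6 samples compared, a replicate block, and leaving out each library. Further alternatives removed, library by library, the trend of counts on gene length and GC content (splines of 4 degrees of freedom), or left out the 3 libraries with the most ribosomal RNA. Another added to the parent gene the counts of pseudogenes that carry a member's name (Mrpl23-ps1, Mrpl48-ps, Mrps36-ps1, Mrps36-ps2 and Mrps36-ps3). The other copies found by BLAST were not added. The members, lists and alternatives were chosen with earlier results of these data known. Members given with values were those with the largest called changes (up to 6 per direction and genotype comparison, mean of at least 5 CPM), the smallest p in the age comparisons (4) and the interaction (6), the 3 highest and 3 lowest per kilobase, and any with a copy of at least 1 CPM. Other members were added by fold change. Some items are not reported here. Replicates differed by more than sampling noise, with chi-square per degree of freedom of 4.05 to 26.7.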

Additional observations from a re-analysis of the deposited data

Results flagged for a closer look

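By the interaction term of edgeR's quasi-likelihood test, the 5xFAD over WT difference differed between 6 months and 1 month for 26 of 78 members. The test was fitted on all genes with Benjamini-Hochberg adjustment, and 25% of all tested genes were called. Values below are the log2 difference at 6 months minus that at 1 month. In the small subunit the term was 1.57 for Mrps6, 1.20 for Mrps21, 1.16 for Mrps14, 1.07 for Mrps7 and 0.78 for Mrps33. In the large subunit it was 1.08 for Mrpl20, 0.93 for Mrpl46, 0.83 for Mrpl48 and 0.76 for Mrpl24. With the length and GC trend removed, Mrps6, Mrps14, Mrps7 and Mrpl48 still passed in the same test. Mrps21, Mrps33, Mrpl20, Mrpl46 and Mrpl24 then did not pass (adjusted p 0.0524 to 0.102). Mrpl23 had a term of -1.71, and the sum of Mrpl23 and its processed copy one of 0.62 (adjusted p 0.112).

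Genes outside the Mrpl and Mrps symbols are given where they were named above by a genotype comparison and the term also passed. The term is the difference of those comparisons, so its passing is no separate evidence. Positive and called were 2 of the 5 other ribosomal protein genes, 5 of 25 assembly factors and 3 of 12 translation factors. So were 2 of 20 genes for charging tRNA and 3 of 12 of transcription and RNA metabolism, where 11.7% of all tested genes were. In these lists 0 were negative and called. The term was 0.89 for Chchd1 (adjusted p 0.0141) and 0.72 for Dap3 (adjusted p 0.00468), both encoding small-subunit proteins. It was 1.07 for the assembly factor gene Rcc1l (adjusted p 0.0104), 0.54 for Tufm (adjusted p 0.0374), 0.67 for Gfm2 (adjusted p 0.00304) and 0.88 for Hars2 (adjusted p 0.00188). It was 0.73 for Slirp (adjusted p 0.0313) and 0.89 for Elac2 (adjusted p 0.00475). Of member transcripts, 3 passed for the same term (Mrpl24-204, Mrps6-201 and Mrps21-201). Groups of 3 libraries are too small for a test of single outlying libraries.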

How the results depend on the processing

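Removing the trend on length and GC left 3 member calls at 1 month, 16 with age in 5xFAD and 9 in the interaction. In that fit 6.87% of all tested genes were lower at 1 month and 10.7% rose with age in 5xFAD. In the interaction 13.4% were positive and called and 6.47% negative and called. Leaving out the 3 libraries with the most ribosomal RNA left 12, 15 and 10 in the same comparisons. Adding the counts of pseudogenes that carry a member's name to their parents left 1 call at 6 months and 1 with age in WT. It turned Mrpl23 to 0.22 at 6 months (adjusted p 0.60) and to 0.62 in the interaction (adjusted p 0.112). Leaving out single libraries gave 5 to 20 calls at 1 month (5 without WT replicate 2), 1 to 3 with age in WT and 15 to 30 in the interaction. These counts stand without the share over all tested genes.

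Of member transcripts, 2 were lower at 1 month, against 1 with no filter, 1 with a replicate block, 1 without the libraries rich in ribosomal RNA, 0 in a fit of the 6 samples, 15 by the DESeq2 Wald test, and 1 to 2 without single libraries. At 6 months the Wald test called 5. The retained-intron share in 5xFAD at 1 month was 10.7% over transcripts with a mean of at least 10 counts.

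Same-numbered libraries correlated between -0.085 and 0.062 in their deviations from group means. No pairing by replicate number was detected, which does not exclude one. With a replicate block there were 16, 2, 31, 2 and 25 member calls at 1 month, at 6 months, with age in 5xFAD, with age in WT and in the interaction. Mrps6 and Mrps21 at 1 month and Mrps14 at 6 months passed in all 16 alternatives. Mrps24 lost its 1-month call in 8 of 16 and Mrpl35 its WT call in 6 of 16. At 10928031 to 19552537 counts, differences between transcripts of 1 gene had little depth behind them. The cause of these changes was not tested.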
